A study of Mus musculus with 14 samples.

Results

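Bulk RNA sequencing was examined in 4 mouse liver tumours driven by MYC that carried a guide RNA against green fluorescent protein (sgGFP), a target with no counterpart in the mouse genome. These control tumours were chosen by their sample label alone and make up 4 of the 14 samples of a series on the transcription factor NRF2 in MYC-driven murine hepatocellular carcinoma. In the other samples Cas9 editing was aimed at Cul3, Keap1 or the ETGE motif of NRF2, and no such group is compared here. The labels give the cell type as hepatocytes and the molecule as total RNA. They do not say whether the tumours came from separate animals, at what age they were taken, or what promoter drove MYC, so each spread given below measures only how these 4 samples differ. Libraries labelled as repeats of tumours 2 and 4 were deposited in a second table and are used at the end.

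Hepatocytes make most of the plasma proteins, clear ammonia through the urea cycle, and produce glucose, lipids and bile acids. These duties are set up after birth under factors such as HNF4A and the C/EBP proteins, while the fetal liver expresses growth genes, among them H19, Igf2 and Afp, that fall silent in the adult and often return in liver cancer. MYC is a transcription factor that raises ribosome production and cell division.

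A promoter is the stretch of DNA around a gene's start site. Promoters of 4 genes are shown because their levels carry the main features described below: Alb for the abundant plasma protein genes, Tat and Pck1 for the mature liver genes high in tumours 3 and 4, and Chgb for the gene with the largest spread. Each runs from 250 bases before to 50 bases after the RefSeq start on the plus strand of GRCm38.p6. They lie at chr5:90460620-90460919 (Alb), chr8:109990186-109990485 (Tat), chr2:173152823-173153122 (Pck1) and chr2:132781392-132781691 (Chgb). Capitals mark matches, on either strand, to the CCAAT box and a core of the cAMP response element (ACGTCA). The TATA box (TATAAA) and an E-box that MYC can bind (CACGTG) were searched in the same way and have no match in these 4 windows.
Alb: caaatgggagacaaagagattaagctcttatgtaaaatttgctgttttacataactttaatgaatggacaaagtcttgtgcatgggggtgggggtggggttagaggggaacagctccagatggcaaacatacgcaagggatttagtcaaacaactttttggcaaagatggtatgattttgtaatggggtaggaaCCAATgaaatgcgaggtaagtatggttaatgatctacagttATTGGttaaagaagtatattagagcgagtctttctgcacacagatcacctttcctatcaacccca
Tat: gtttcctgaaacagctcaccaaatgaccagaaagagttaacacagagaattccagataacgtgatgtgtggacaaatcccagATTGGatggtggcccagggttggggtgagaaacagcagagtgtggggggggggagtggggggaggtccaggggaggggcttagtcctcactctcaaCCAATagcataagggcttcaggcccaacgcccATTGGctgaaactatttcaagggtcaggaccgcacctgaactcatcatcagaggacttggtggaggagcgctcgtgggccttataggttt
Pck1: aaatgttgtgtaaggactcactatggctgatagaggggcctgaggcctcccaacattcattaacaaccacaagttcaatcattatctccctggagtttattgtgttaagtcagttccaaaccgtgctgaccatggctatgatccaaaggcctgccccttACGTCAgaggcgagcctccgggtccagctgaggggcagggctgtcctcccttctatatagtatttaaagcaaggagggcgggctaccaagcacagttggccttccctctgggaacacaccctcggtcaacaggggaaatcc
Chgb: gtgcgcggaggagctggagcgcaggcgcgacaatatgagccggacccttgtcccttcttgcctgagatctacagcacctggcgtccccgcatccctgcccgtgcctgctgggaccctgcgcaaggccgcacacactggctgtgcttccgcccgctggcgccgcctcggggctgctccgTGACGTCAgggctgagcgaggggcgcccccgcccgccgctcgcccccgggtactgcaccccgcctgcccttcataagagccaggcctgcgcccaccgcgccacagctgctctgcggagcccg
The Alb window holds a CCAAT box starting 56 bases before the start and a reversed CCAAT box at 15 bases. Tat has 3 CCAAT boxes, Pck1 has ACGTCA at 91 bases before the start, and Chgb has overlapping matches to ACGTCA on both strands. CCAAT was present in 37.4% of 32851 mouse promoters of this length, in 37.9% of 8770 promoters of genes with a mean level of at least 100, in 43.4% of 83 promoters of the 100 genes highest per length and in 40.3% of 437 promoters of the genes that varied at least 4-fold. ACGTCA was found in 7.51% of all promoters, 12.4% of those of genes at that level, 13.3% of those of the most abundant genes and 7.78% of those of the variable genes. In the same order the shares for TATAAA were 13.6%, 6.88%, 18.1% and 14.2%, and those for CACGTG were 7.15%, 10.6%, 10.8% and 6.18%. For ACGTCA and CACGTG the most abundant genes were thus close to the other genes of at least that level. RefSeq windows matched 63 of the 100 most abundant genes and 340 of the 488 variable ones, and a match is a run of letters, not a measured binding site.

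The libraries held between 10739965 and 12008223 reads on 16821 listed genes. Levels below are scaled counts, that is the deposited value less the 1 that had been added to it, and a list of 4 values always runs from tumour 1 to tumour 4. TPM, a level per length that sums to the same total in every library, is used to compare genes with each other. It divides by the combined length of all annotated exons of a gene, not by that of the transcript expressed. With 3 reads per library as the limit, a gene without reads could still have been present at 0.250 to 0.279 CPM, and such limits cover counting error only. Reads were found in all 4 tumours for 15560 genes, in 3 for 867, in 2 for 262 and in 1 for 82. The libraries differed in how concentrated they were. The 10 most abundant genes took 8.29%, 13.70%, 10.99% and 18.04% of the reads. The listed mitochondrially encoded genes took 3.02%, 8.73%, 4.49% and 13.0%. Tumour 1 spread its reads most evenly, with 894 genes making up 50% of them, against 465 in tumour 4.

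Fetal growth genes, plasma protein genes and mitochondrial genes were the most abundant. H19, an imprinted non-coding RNA of the fetal liver (chromosome 7, 142575529 to 142578143), took the largest mean share of the reads, 2.96% ± 0.584 (SD, n = 4). Its levels were 258879, 233832, 343886 and 251390 scaled counts, a 1.47-fold range, so it was high in every tumour. Its neighbour Igf2, a fetal growth factor, took 0.72% of the reads and stood at 50832, 69235, 69739 and 78306. Albumin (Alb), the main plasma protein, took a mean share of 0.964% ± 0.469 and was less even, at 27498, 79470, 117490 and 147489 scaled counts. Tumour 1 had the least albumin RNA and tumour 4 the most, 5.36-fold apart. Apoa1, the main protein of high-density lipoprotein, was at 37719, 40810, 62637 and 85214, and Apoa2, its partner, at 13145, 26704, 23949 and 40231.

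Per unit of length the order changed. Among the listed genes mt-Nd1, a subunit of respiratory complex I, led at 40497 TPM ± 23959 (SD, n = 4). It was followed by mt-Co1 of complex IV at 33669 ± 17360 and mt-Cytb of complex III at 32297 ± 14265. H19 came next at 32097 ± 9475. These neighbours lay within each other's spread. Apoa2 (13024 TPM ± 3027), Apoa1 (12585 ± 3044) and Alb (10533 ± 4809) led the genes of the plasma proteins and likewise could not be ordered beyond their spread. Of the 25 most abundant named genes by share of reads, 16 were also among the 25 highest by TPM, and 6 genes in each list were mitochondrial. The 25 highest by share together held 16.9% of the reads. Only 75 genes had a mean of at least 10000 scaled counts, while 8876 had one of at least 100.

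**Figure D1:**
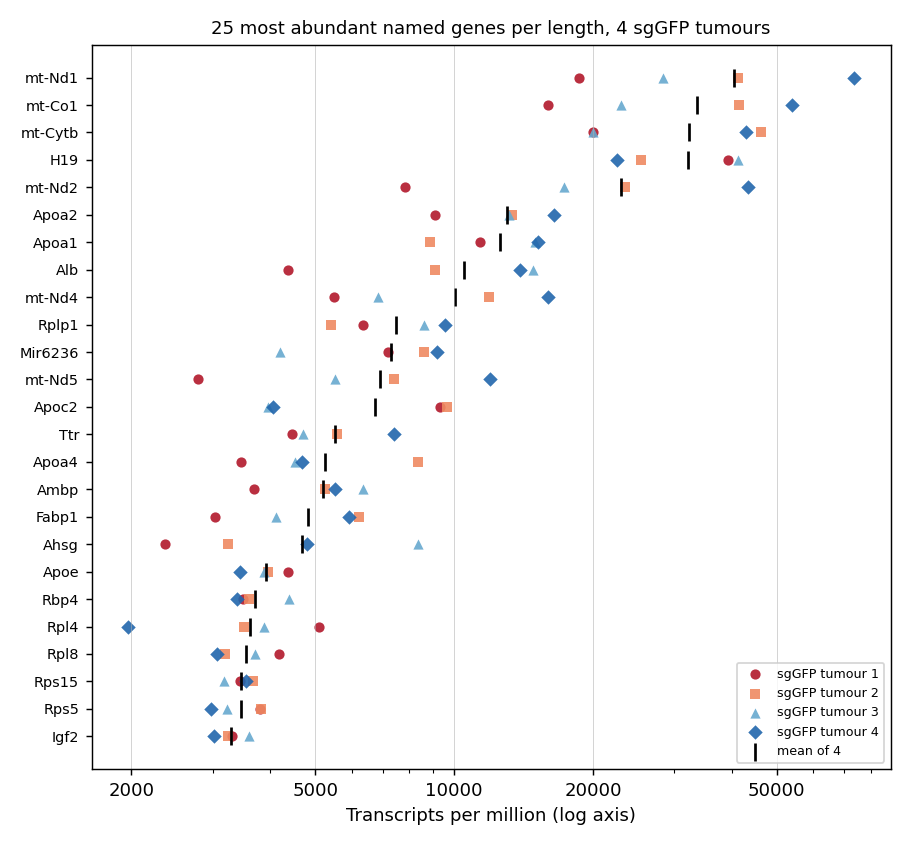
Level per length (TPM, log axis) of the 25 most abundant named genes, with 1 symbol for each of the 4 sgGFP tumours and a tick at their mean. For mt-Nd1, mt-Co1 and mt-Nd2 tumour 4 is highest and tumour 1 lowest, whereas the symbols of Igf2 and Rps15 lie close together.

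The mitochondrial genes were the widest spread among the leaders. mt-Nd1 was at 48060, 147291, 92103 and 320064 scaled counts, and mt-Nd2, another complex I subunit, at 21893, 90788, 61069 and 204216. Tumour 4 was highest and tumour 1 lowest for both, by 6.66-fold and 9.33-fold. Summed per kilobase, the 7 listed mitochondrial protein genes, of 13, ranged 5.77-fold, and by TPM 3.42-fold. The other 6, mt-Nd3, mt-Nd4l, mt-Co2, mt-Co3, mt-Atp6 and mt-Atp8, are not among the listed genes. Ranks and shares of mitochondrial genes given here therefore leave them out. The 30 nuclear subunits of the respiratory chain ranged 2.30-fold per kilobase but only 1.36-fold by TPM, with tumour 4 highest and tumour 1 lowest on both scales. Among these nuclear subunits Cox4i1 was at 6233, 11725, 11650 and 17402.

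Secreted liver proteins formed the largest nuclear programme. The 21 plasma carriers and apolipoproteins summed to 86296 TPM ± 13063 (SD, n = 4), and each of them had a mean of at least 100 scaled counts. Transthyretin (Ttr), a thyroid hormone and retinol carrier, stood at 14166, 24661, 18888 and 39909. The fibrinogen chain gene Fgb was steadier, at 24331, 25457, 25290 and 19983. The other chains Fga and Fgg were, like Fgb, lowest in tumour 4, with 9817 and 8642. The 18 coagulation genes summed to a 1.29-fold range per kilobase and 1.72-fold by TPM, but single members varied more. Of the 18, 5 had a 4-fold range (27.8%), or 3 with libraries scaled to equal totals. The share was 5.5% among all 8876 genes with a mean of at least 100. Tumours 3 and 4 were the 2 highest for 12, or 11 with equal totals, against 29.6% of those 8876. Tumour 1 was lowest for 14. Complement was led by C3, the central component, at 14380, 21702, 32256 and 25226.

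Acute phase proteins, which the liver secretes during inflammation, varied more. Of 13 such genes with a mean of at least 100, 8 had a range of at least 4-fold, as did 5.5% of all 8876 genes at that level. Haptoglobin (Hp) was at 3334, 18973, 15700 and 23759, and Orm1, an orosomucoid, at 169, 1308, 995 and 1604. Both were lowest in tumour 1 by a wide margin. Saa3, a serum amyloid made by several cell types in inflammation, was instead highest in tumour 2, at 468, 3106, 311 and 475.

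Across all genes, 11297 of 12722 with a mean of at least 10 scaled counts (88.8%) differed between the tumours by more than counting error (chi-square test on the reads, Benjamini-Hochberg level 0.05). Differing beyond counting error was therefore the rule for these libraries, and the size of the difference says more. Among the 8876 genes with a mean of at least 100, 488 (5.5%) had a highest level at least 4-fold above the lowest. Fold ranges and SDs were taken on the log2(level + 1) scale. The median SD was 0.31 log2 units, with the 10th and 90th percentiles at 0.14 and 0.70, and the median range was 1.62-fold. The median coefficient of variation beyond counting error was 21.1%. With 1 library per tumour in this set, it holds differences of tumours and of library preparation alike. A range under 1.5-fold was found for 3371 genes, 38.0%. Left without tumour 1, only 201 genes had a 4-fold range, so tumour 1 took part in most of the wide ones.

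By their genes of wide range, the tumours fell into unequal pairs. Tumours 3 and 4 differed at least 4-fold in 16 genes and tumours 1 and 2 in 60. The other pairs gave 147 (2 and 3), 182 (2 and 4), 265 (1 and 3) and 378 (1 and 4). The typical gene showed this less. Median absolute log2 differences were 0.304 (1 and 2), 0.307 (3 and 4), 0.330 (1 and 3), 0.352 (2 and 4), 0.367 (2 and 3) and 0.458 (1 and 4). Tumours 1 and 3 were the 2 highest for 20.8% of all 8876 genes, but for only 11 of the 488. Among the 488 genes, tumours 3 and 4 were the 2 highest for 262, which is 53.7% of them against 29.6% of all 8876 genes, and tumours 1 and 2 for 155, 31.8% against 19.2%. This balance depends on the scaling: with libraries scaled to equal totals, the count for tumours 3 and 4 was 171 and that for tumours 1 and 2 was 220, and over all 8876 genes the shares were 16.45% and 29.8%. The counts of list members given below are to be read against these shares and against the 5.5% of genes with a 4-fold range. Some marker genes moved with this split. The 10 hepatocyte markers summed to 63627, 100500.0, 138037 and 182379 scaled counts per kilobase, and the 12 macrophage markers to 5432, 5015, 1287 and 938. All of these markers had reads in at least 1 tumour. In bulk RNA, fewer cells of a type and less RNA per cell cannot be told apart, and the part of such cells in the gene differences below was not tested.

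**Figure D2:**
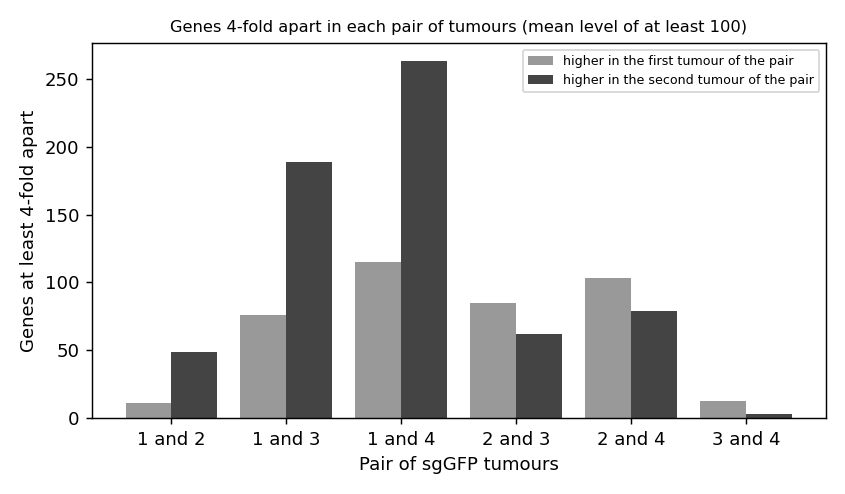
Number of genes at least 4-fold apart in each pair of sgGFP tumours, split by which tumour of the pair is higher and limited to a mean level of 100 scaled counts or more. The bars for tumours 3 and 4 are the shortest, 16 genes in all, and those for tumours 1 and 4 the tallest, 378 genes.

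Of 51 gene lists, 33 for programmes and 18 for cell types, 30 ranged at least 2-fold in summed TPM and 28 in summed scaled counts per kilobase, which does not move with the mitochondrial share. Without tumour 1 only 14 did by TPM. Enzymes of amino acid breakdown and the urea cycle had the most members of wide range. Of its 22 genes, 11 had a 4-fold range, against 5.5% of all genes at that level, and tumours 3 and 4 were the 2 highest for 20, against 29.6% of all. With equal totals these counts were 7 and 19. Tat, tyrosine aminotransferase, a classical marker of the mature hepatocyte, was at 39.8, 58.3, 7351 and 8397 scaled counts. Tumours 1 and 2 had almost none of it, and the range was 206-fold. Sds, which breaks down serine in periportal hepatocytes, was at 660, 1420, 8017 and 14616. Cps1, the first enzyme of the urea cycle, was at 5704, 14845, 36528 and 19309, and Arg1, the last, at 3716, 9756, 15014 and 23029. Their ranges were 6.40-fold and 6.20-fold, with tumour 1 lowest for each.

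Genes of glucose production and adult glucose handling were often highest in tumours 3 and 4 but did not all share 1 order. Of 12 such genes, tumours 3 and 4 were the 2 highest for 7, or 5 with equal totals, against 29.6% of all genes. Tumours 1 and 2 were the 2 highest for 0. A 4-fold range was found for 4, against 5.5% of all genes. Pck1, which commits carbon to glucose production, was at 269, 518, 9519 and 7880, a 35.3-fold range. Tumours 3 and 4 were well above the others. G6pc, the last step of glucose release, was instead at 1066, 451, 1667 and 1010, with tumour 3 highest and tumour 2 lowest.

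Detoxifying and bile acid genes were lower in tumour 1. The 38 cytochrome P450 genes of families 1 to 4 that are analysed here ranged 4.27-fold in summed level, and 8 of the 11 with a mean of at least 100 had a 4-fold range, or 5 with equal totals, against 5.5% of all genes. Cyp3a11, a main drug-metabolising enzyme, was at 520, 2117, 2810 and 2675. Cyp2e1, usually one of the most abundant messages around the central vein, was low in every tumour, at 21.6, 23.0, 352 and 175. Cyp7a1, the rate-limiting enzyme of bile acid synthesis, was low, with 2.70, 3.07, 31.9 and 17.9, whereas the bile salt export pump Abcb11 was at 1500, 2466, 4058 and 3839. Of 16 bile acid genes with a mean of at least 100, tumours 3 and 4 were the 2 highest for 14, or 13 with equal totals, against 29.6% of all genes.

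Genes of lipid synthesis were mostly highest in tumours 3 and 4. Of 18 genes of fatty acid and cholesterol synthesis at a mean of at least 100, tumours 3 and 4 were the 2 highest for 16, or 13 with equal totals, although only Scd1, the stearoyl-CoA desaturase, had a 4-fold range, at 495, 832, 2952 and 3046. Fasn, fatty acid synthase, was at 3149, 2232, 6878 and 6627. The 19 genes of fatty acid oxidation and ketone synthesis were near the shares over all genes, with tumours 3 and 4 the 2 highest for 4 of them (21.1%) and tumours 1 and 2 for 5 (26.3%).

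Hepatocyte transcription factors were present in all tumours. Hnf4a, the main regulator of hepatocyte genes, was at 3583, 2648, 6488 and 4757, and Cebpa, which restrains growth in the mature liver, was nearly constant at 1026, 980, 1089 and 1023. Cebpb, a factor of the acute phase and regenerating liver, was highest in tumour 4, at 276, 571, 758 and 2271. Onecut2, a factor of liver development, was at 2.70, 9.21, 201 and 501, a 136-fold range between tumours 1 and 4. Of 17 such factors with a mean of at least 100, 3 had a 4-fold range, 17.6% against 5.5% of all genes.

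**Figure D3:**
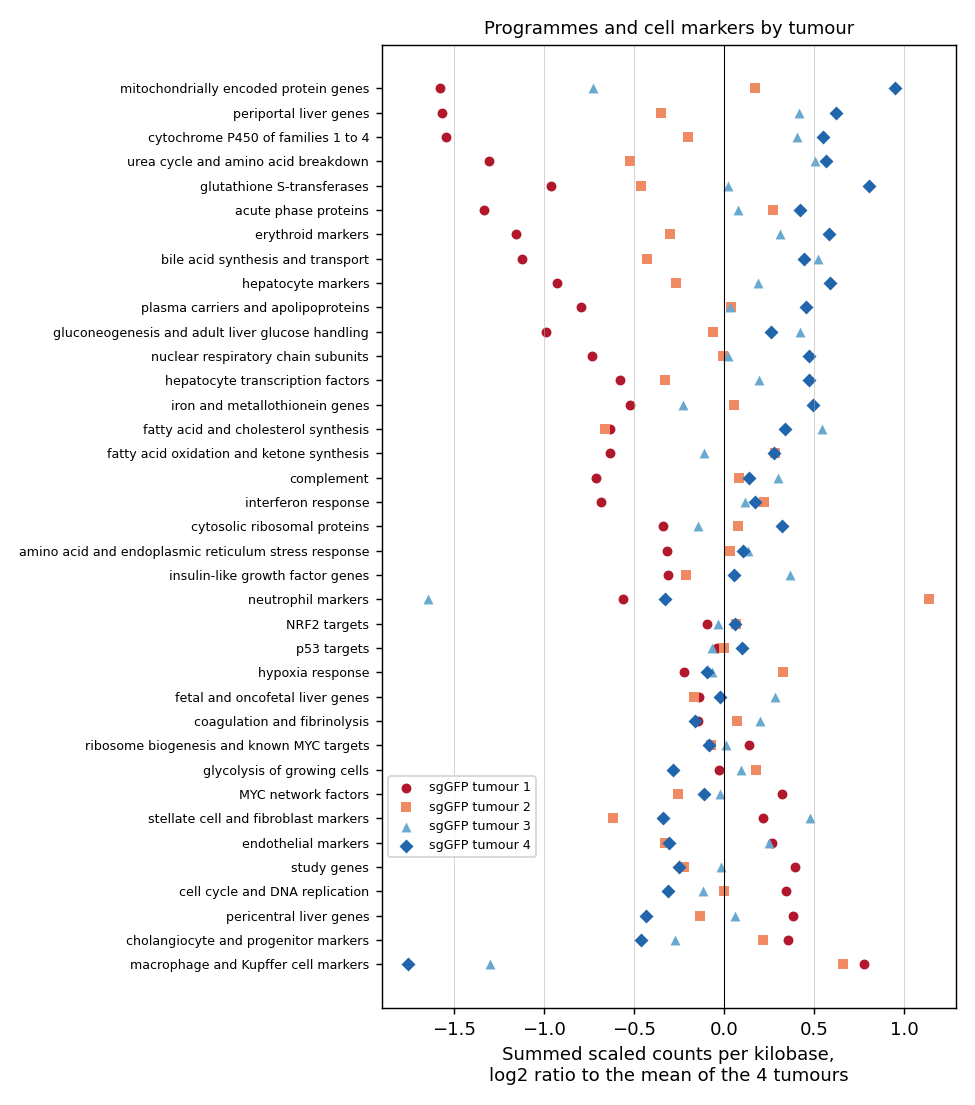
Summed level of each gene list with at least 3 members at a mean of 100 scaled counts, shown as the log2 ratio to the mean of the 4 sgGFP tumours, with 1 symbol for each tumour. Lists at the top have tumour 4 far above tumour 1 (the mitochondrial genes ranged 5.77-fold), those at the bottom the reverse, and ribosome biogenesis, NRF2 targets and p53 targets lie near 0 in all tumours on this scale.

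Periportal genes were mostly highest in tumours 3 and 4. Of 12 such genes with a mean of at least 100, 7 had a 4-fold range, against 5.5% of all genes. Tumours 3 and 4 were the 2 highest for 10, also with equal totals. Ctsc, with a 4-fold range, ran the other way at 734, 786, 329 and 167. This list is not separate from those above: Sds, Hal, Arg1, Ass1, Cps1 and Gls2 are also on the list of amino acid breakdown and the urea cycle. The pericentral list was low, with 3 of 14 genes at a mean of at least 100 and Rhbg, an ammonia transporter, without a read in any tumour. Those 3 did not share 1 order. Glul, glutamine synthetase, was at 3691, 2506, 2438 and 1800, and Oat, ornithine aminotransferase, at 1606, 1144, 1132 and 844, both highest in tumour 1. Cyp2e1, as given above, was highest in tumour 3 and lowest in tumour 1. Glul is also a target of beta-catenin, and 2 further targets on that list, Sp5 and Rhbg, had no reads.

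Fetal genes included some of the most abundant and even messages, and some that varied widely. Afp, the fetal counterpart of albumin, was at 28431, 33991, 25446 and 31473, a 1.34-fold range. The RNA-binding oncofetal protein gene Igf2bp3 was at 1045, 893, 974 and 480. Tff3, a secreted mucosal peptide, was the most variable member, at 418, 1750, 3004 and 3862, and Meg3, an imprinted non-coding RNA, was at 427, 515, 869 and 1999. Both were lowest in tumour 1 and highest in tumour 4, as albumin was. Of 17 fetal genes with a mean of at least 100, 3 had a 4-fold range, 17.6% against 5.5% of all genes.

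Growth genes held almost no members of wide range. Myc itself (chromosome 15 in the mouse) was at 6758, 3712, 4707 and 4060 scaled counts, 533 TPM ± 273 (SD, n = 4), highest in tumour 1. Reads of the native gene and of an introduced MYC were not told apart. None of 25 genes of ribosome biogenesis, 64 cytosolic ribosomal protein genes, 28 cell cycle genes and 15 genes of glycolysis with a mean of at least 100 had a 4-fold range. With equal totals 1 gene of ribosome biogenesis and 3 of the cell cycle did. The nucleolar protein nucleolin (Ncl) was at 26710, 17645, 22495 and 23344, and the summed ribosome biogenesis list ranged 1.17-fold per kilobase but 1.97-fold by TPM, with tumour 1 highest and tumour 4 lowest on both scales. The ribosomal protein list ranged 1.58-fold, with tumour 4 highest by scaled counts per kilobase but tumour 1 highest by TPM, so its order between tumours depends on the scale. The cell cycle list ranged 1.58-fold per kilobase and 2.66-fold by TPM, likewise highest in tumour 1. Tumours 1 and 2 were the 2 highest for 16 of its 28 genes, against 19.2% of all genes, and tumour 1 was highest for 25. Mcm4, part of the replicative helicase, was at 1179, 709, 509 and 334, while Rrm2, which supplies deoxynucleotides, was at 1826, 2440, 2394 and 2235.

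NRF2 target genes were uneven in a few members. The 22 genes ranged 1.12-fold in sum per kilobase, with tumour 2 highest, and 1.52-fold by TPM, with tumour 1 highest. Of 17 with a mean of at least 100, 2 had a 4-fold range, 11.8% against 5.5% of all genes. Hmox1, heme oxygenase, was at 1993, 1648, 244 and 130, high in tumours 1 and 2. Nqo1, a quinone reductase often used to read NRF2 activity, was low, at 17.5, 22.2, 58.5 and 110. Nfe2l2, which encodes NRF2, was at 914, 1084, 842 and 629, Keap1, its repressor, at 599, 582, 707 and 721, and Cul3, the ubiquitin ligase scaffold, at 1372, 1247, 1202 and 935. Fn3k, fructosamine-3-kinase, was low, at 16.2, 9.21, 37.2 and 24.2. Glutathione S-transferases varied more: Gstm1 was at 1405, 2025, 6458 and 15027 and Gstm3 at 221, 479, 3354 and 8679, both highest in tumour 4. The mu class genes resemble each other in sequence, so reads may have been split between them.

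Markers of other cell types were mostly present at low levels, and those of macrophages moved with the split of the tumours. Cd5l, a secreted macrophage protein, was at 2876, 2760, 303 and 200, and C1qb, a complement subunit made by macrophages, at 1625, 1584, 409 and 293. Hmox1, which macrophages also express, was likewise highest in tumour 1 and lowest in tumour 4. Clec4f, a defining Kupffer cell marker, did not, with 60.7, 19.9, 78.8 and 95.8. Tumours 1 and 2 were the 2 highest for all 6 macrophage markers with a mean of at least 100, also with equal totals.

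Plasma cell genes were likewise higher in tumours 1 and 2, but with tumour 2 highest and tumour 3 lowest. Ighg1, an immunoglobulin heavy chain, was at 229, 281, 0 and 1.79, and Igkc, the kappa light chain, at 300, 453, 35.4 and 51.9. The 9 B and plasma cell markers analysed here summed to 624, 928, 84.2 and 126 per kilobase. Only 3 of them had a mean of at least 10 scaled counts, and only Igkc had one of at least 100. Ighg1 is not on that list. Neutrophil genes peaked in tumour 2, with S100a9, a calcium-binding protein of neutrophils, at 607, 2089, 283 and 706. The 14 neutrophil markers analysed here summed to 2389, 7785, 1131 and 2818.

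Globin genes were higher in tumours 3 and 4. The 13 erythroid markers analysed here, whose sum the globins dominate, were lowest in tumour 1 and ranged 3.34-fold per kilobase and 2.19-fold by TPM. The beta globin Hbb-bs was at 2694, 5418, 7165 and 8215. Some red cell genes ran against it, such as Slc4a1, the anion exchanger of the red cell membrane, at 432, 328, 306 and 214. Of the 7 markers with a mean of at least 100, tumours 3 and 4 were the 2 highest for 5, against 29.6% of all genes. Tumours 1 and 2 were the 2 highest for the other 2. Both counts were the same with equal totals. Summed endothelial and fibroblast markers did not follow the split, with tumours 1 and 3 highest in both sums. Single members did, in either direction. On each list, of 6 markers with a mean of at least 100, tumours 1 and 2 were the 2 highest for 1, and tumours 3 and 4 for 1. Each is 16.7%, against 19.2% and 29.6% of all genes. The only marker of each list with a 4-fold range was among these. Endothelial markers ranged 1.51-fold per kilobase and 2.51-fold by TPM, with Cdh5, the vascular cadherin, at 254, 235, 289 and 217. Fibroblast markers ranged 2.14-fold, and Col1a1, fibrillar collagen, was at 659, 277, 899 and 445. T and NK cell markers were close to the detection limit: none of the 10 analysed here reached a mean of 100, and Cd3d was at 2.70, 7.67, 4.43 and 7.16. On the cholangiocyte and progenitor list Cldn4, a claudin of bile duct cells, was at 216, 90.5, 3.54 and 0.895. Prom1, a progenitor surface protein and 1 of the 3 members with a mean of at least 100, ran the other way at 26.3, 84.4, 374 and 386, and none of those 3 was highest in tumour 1.

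No read was found in any of the 4 tumours for 50 listed genes, 37 of them protein coding. The table lists only genes with at least 15 reads over its 10 libraries, so this count says nothing of genes it does not list. A listed gene without reads here was listed only through its reads in the other 6 libraries, 549 for Asb9. The 50 are thus no sample of all silent genes. Among the 50 were Asb9, an adaptor of ubiquitin ligases, Trim54, a muscle protein, and Dmbt1, a mucosal scavenger protein. Glp1r, the incretin receptor, and Rbfox1, a neuronal splicing factor, were others. Adult liver genes were also at 0: the major urinary protein genes Mup5, Mup11 and Mup13. These pheromone carriers are among the most abundant messages of the adult male mouse liver. Xist, the RNA of the inactive X chromosome of females, was present in all 4 tumours at 6235, 9563, 9225 and 11476. The Y-linked Ddx3y, Eif2s3y, Kdm5d and Uty were looked for and are not among the listed genes. The sex of the mice was not tested. Of 8 major urinary protein genes analysed here the highest, Mup20, reached 29.7, 42.2, 79.7 and 43.0. The major urinary protein genes are near-identical copies, and reads shared between them may not have been counted. The same limit bears on Gapdh, which has many processed copies and stood at only 242, 545, 360 and 708.

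The genes with the widest ranges, chosen for that spread and so only described, came from both sides of the split. Chgb, chromogranin B of neuroendocrine secretory granules (chromosome 2), was at 2740, 117, 0.886 and 1.79, so nearly all of it came from tumour 1. Sfmbt2, a polycomb protein gene that is imprinted in the mouse, was at 1559, 309, 16.8 and 13.4. Cldn6, a claudin of embryonic epithelia, was at 344, 81.3, 0.886 and 2.68, and Emp2, an epithelial membrane protein, at 721, 138, 35.4 and 6.26. For all 4 genes tumour 1 was highest and tumour 2 next.

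On the other side, Akr1b7, an aldo-keto reductase, was at 91.8, 481, 4457 and 5458. Enpp2, the enzyme autotaxin that makes lysophosphatidic acid, was at 24.3, 32.2, 665 and 969, and Gpx6, a glutathione peroxidase, at 3.37, 5.37, 231 and 183. Tumours 3 and 4 exceeded tumours 1 and 2 for each of them. Other genes were set apart in 1 tumour. Pde6g, a phosphodiesterase subunit known from photoreceptors, was at 2.70, 2.30, 466 and 51.9, and Fads2, a fatty acid desaturase, at 248, 153, 1387 and 272, both highest in tumour 3. Cxcl1, a neutrophil attractant, was at 148, 764, 45.2 and 93.1, and Mmp12, a macrophage elastase, at 279, 1102, 107 and 124. Both peaked in tumour 2, as did the neutrophil markers. Lama5, a laminin chain, was highest in tumour 4, at 609, 556, 573 and 1608.

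**Figure D4:**
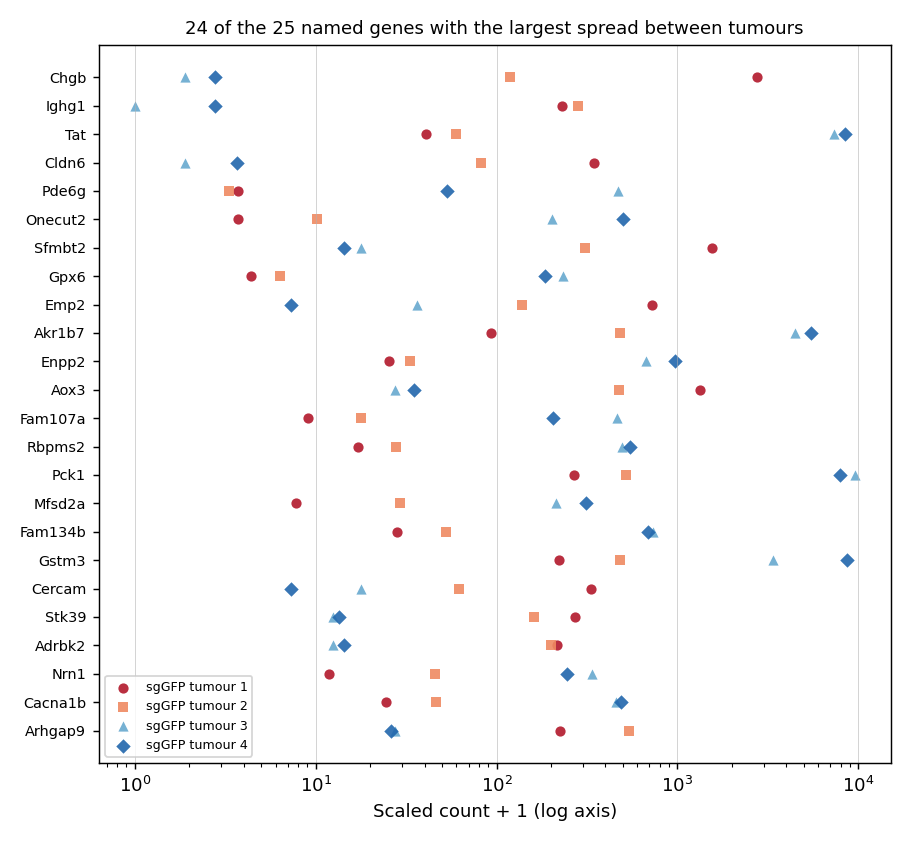
Scaled count + 1 (log axis) of 24 of the 25 named genes with the largest SD of log2(level + 1), with 1 symbol for each of the 4 sgGFP tumours. For most genes tumours 1 and 2 lie together on one side and tumours 3 and 4 on the other, as for Tat at 39.8, 58.3, 7351 and 8397.

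Among the 10 genes with the smallest SD, Zc3hc1, a ubiquitin ligase adaptor of the nuclear envelope, was at 565, 566, 561 and 559. Dolk, dolichol kinase of protein glycosylation, was at 229, 226, 226 and 228, and Tubb4b, a beta tubulin, at 1602, 1588, 1593 and 1631. Each varied by at most 1.03-fold. They were chosen for that small spread, which is therefore a description and not a test.

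The repeat libraries show which of the large tumour differences recur. Library A, labelled as a repeat of tumour 2, and library B, of tumour 4, held 17859275 and 17819333 reads on genes and were scaled apart from the first table. Across 8876 genes, which are not independent replicates, Pearson correlations of log2 levels were highest with the named tumour: 0.991 for A with tumour 2, against 0.927, 0.889 and 0.890 with tumours 1, 3 and 4, and 0.963 for B with tumour 4, against 0.810, 0.893 and 0.931 with tumours 1, 2 and 3. All 182 genes at least 4-fold apart between tumours 2 and 4 differed in the same direction between A and B, and 144 by at least 4-fold. Tat, 7.15 log2 units lower in tumour 2 than in tumour 4 (a difference of -7.15), gave -7.06 between A and B. Chgb gave 5.41 and 5.64, and Pck1 -3.93 and -3.98. Over all 8876 genes the correlation between the 2 sets of differences was 0.776 (Pearson) and 0.616 (Spearman). Differences of ordinary size recurred less well. The median absolute difference was 0.352 log2 units between tumours 2 and 4 and 0.390 between A and B. The 2 sets of differences lay a median of 0.331 apart. Myc gave -0.13 in the first libraries and 0.58 in the repeats, and Apoa1 -1.06 and -0.15. The labels do not say whether a repeat was a new extraction or the same RNA, so the agreement speaks for the libraries and not for tumours of this genotype in general.

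**Figure D5:**
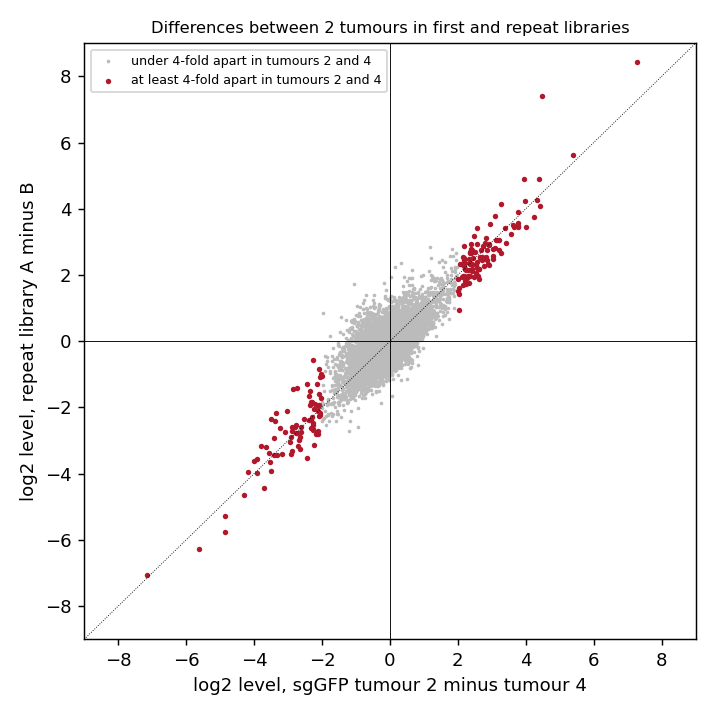
Difference in log2 level between sgGFP tumours 2 and 4 (horizontal axis) against the difference between their repeat libraries A and B (vertical axis), for the 8876 genes whose mean reached 100 scaled counts. The 182 genes at least 4-fold apart in the first libraries (coloured) all keep their direction in the repeats, and the dotted line marks equal differences.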

How the data were processed

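Total RNA of each tumour was prepared with an Illumina TruSeq kit, per the labels' protocols. The submitters' processing notes name mm10, Picard, HTSeq and DESeq. The sources used here name no aligner, annotation release or version. Deposited values are gene counts that the authors divided by a size factor per library, here called a signal. The first table adds 1 to each value, which was subtracted. Every value then was a whole multiple of the worth of 1 read in its library (tolerance 0.1 reads), and reads were recovered by that step. Depth was 10739965 to 12008223 reads on genes per tumour.

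TPM used union exon lengths of GENCODE M21 (GRCm38), which matched 16769 of 16821 genes, with no length for 52. Equal levels in the 4 tumours were tested by chi-square on reads, a test also run on simulated data. Dispersions came from edgeR 4.0.16 in R 4.3.3, all else from Python 3.11.15, pandas 2.3.3 and scipy 1.17.1. Promoters are RefSeq's. Fold ranges use level + 1. Alternatives were a lower or no filter, TMM and equal totals, TPM, and leaving out each tumour.

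Named genes are the 25 highest by share and by TPM, the 25 most and 10 least variable, the 6 highest and 6 lowest of each tumour against the next, and for each list up to 4 highest, up to 3 most variable and those without reads, with predicted genes left out. A few genes that this rule names are not reported here. Cyp7a1, Cebpa, Igf2bp3, Clec4f, Slc4a1 and the genes without reads that belong to no list were picked after their values were seen. The tumours, lists and rules were chosen with earlier results of these data known. Guide groups were not compared. No adjustment for batch was made, since the labels give none.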

Additional observations from a re-analysis of the deposited data

Results flagged for a closer look

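In a group of 4, a sample was picked out when its gap to the nearest other took more of the whole range than Dixon's 95% critical value for 4 samples. Of 122 measures examined (81 named genes, 37 gene lists and 4 library measures), 7 met it, 5.7%. The value allows about 1 in 20 by chance, which does not hold for genes named for their spread. All genes picked out were among those named for a high ratio of 1 tumour to the next. That is much the same gap, so their result is a description and not a test.

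The gap took 0.957 of the range for Chgb, where tumour 1 was far above the others, 0.950 for Lama5 (tumour 4 high), 0.941 for Saa3 (tumour 2 high), 0.903 for Fads2 and 0.893 for Pde6g (tumour 3 high for both) and 0.857 for Cxcl1 (tumour 2 high). The interferon response list was set apart by being low in tumour 1, with 287, 536, 500 and 518 summed scaled counts per kilobase, at 0.855. It was not set apart on other scales: by summed TPM it was at 107, 144, 147 and 114, with a gap of 0.179 of the range, and by share of reads the gap was 0.631. Of the 18 genes of that list only 3 had a mean of at least 100, and Usp18, which restrains interferon signalling, stood at 200, 463, 745 and 726.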

How the results depend on the processing

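Of 82 alternative values, 65 kept within the spread or within 1.5 times the main value, 16 moved and 1 changed direction. Allowing up to 3 reads raised the genes counted as silent from 50 to 201, and leaving out a tumour gave 63 to 79, with 79 reached without tumour 1. The mean share of the 10 leading genes was 12.8%, 22.0% by TPM and 8.45% without mitochondrial and haemoglobin genes. Genes with a 4-fold range numbered 2660 without a filter on the mean and 201 to 431 with a tumour left out, lowest without tumour 1. The median SD was 0.370 log2 units at a mean of at least 10 and 0.284 to 0.313 with a tumour left out. The median squared coefficient of variation was 0.0443, against 0.0781 for edgeR's tagwise dispersion, 0.0575 at a mean of at least 10 and 0.0360 to 0.0444 with a tumour left out. Lists with a 2-fold range numbered 14 to 28, lowest without tumour 1. The value that changed direction came with equal totals: genes of wide range with tumours 3 and 4 highest were 171 in place of 262 and those with tumours 1 and 2 highest 220 in place of 155, a balance of -49 in place of 107. These comparisons, and those of list members with equal totals, were chosen after seeing the data. Equal totals shift the median gene by 0.23 log2 units in tumour 1 and -0.18 in tumour 4, while TMM shifts it by at most 0.02. The cause of the other shifts was not tested.

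No paired analysis was possible because no groups were compared, so the replicate numbers of the labels pair nothing. Depth limits the genes at or near 0, and 4 tumours of unstated origin limit every spread. Reads of genes with near-identical copies, such as Gapdh and the major urinary proteins, are uncertain. Libraries A and B held 29237573 and 31087597 alignments listed as not unique.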
